A study of Homo sapiens with 6 samples.

Results

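Collagens are the main fibrous proteins of the extracellular matrix. Each molecule is a helix of chains wound around each other, and the kind of chain decides what is built: fibrils, the sheet-like network of basement membranes, beaded filaments, or the anchoring fibrils that tie an epithelium to the stroma under it. Before the chains fold in the endoplasmic reticulum, prolyl 4-hydroxylases and lysyl hydroxylases modify them, and after secretion lysyl oxidases prepare the crosslinks that join the molecules. In carcinoma much of the matrix comes from fibroblasts, while epithelial cells contribute basement membrane collagens, the anchoring fibril collagen and the enzymes.

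The genes described here are the protein-coding genes whose symbol is that of a collagen chain (COL followed by a type and a chain number), a lysyl oxidase (LOX and LOXL1 to LOXL4), a lysyl hydroxylase (PLOD1 to PLOD3) or a prolyl 4-hydroxylase subunit (P4HA1 to P4HA3 and P4HB). The rule found 52 genes among the 30230 of the count table, 40 collagen chains and 12 enzymes. It used names and no measured value. Polyadenylated RNA was sequenced from A549 cells, an established line of human lung adenocarcinoma, in 3 libraries of negative control cells (NC) and 3 libraries after silencing of FSCN1 (siFSCN1). FSCN1 encodes fascin, which bundles actin filaments. The comparison asks which transcripts differ once FSCN1 is silenced. According to the study's text, the sequenced cells received a single siRNA, so no second siRNA against FSCN1 was sequenced, and NC cells were given a scrambled siRNA, although GEO's treatment label for NC reads control plasmid. The study calls the 3 libraries of a group biological replicates. All cells were of 1 line in culture, with no stroma beside them, and secreted or deposited collagen protein was not measured. In bulk RNA, fewer cells making a transcript and less of it per cell cannot be told apart.

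The libraries held between 27967301 and 36560919 counts, and between 44 and 47 of the 52 genes had at least 1 count in a library. FSCN1 itself stood at 211, 220 and 212 CPM (counts scaled to a common library size and corrected by TMM factors) in the NC libraries and at 18.3, 11.8 and 13.2 in the siFSCN1 libraries, 6.75% of the NC level by the fit (log2 fold change -3.89, SE 0.094, adjusted p = 8.1e-16). A gene is said here to have risen or fallen at an adjusted p under 0.05 in edgeR's quasi-likelihood test, with adjustment over all 17076 genes tested, and is called where the difference was also at least 2-fold. Levels of different genes are ranked only in FPKM, which divides fragments by gene length. That length followed the merged length of all annotated exons, 19271 bases for COL4A2 and 11133 for COL7A1 in GENCODE v44. Ranks and shares between genes therefore depend in part on the annotation. FPKM carries no TMM correction, so its ratios between groups run higher than those of CPM.

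The promoters of 5 genes are shown first, because they belong to the genes on which the results turn: 1 gene from each of the 3 head-to-head pairs of collagen IV genes, the called chain of highest FPKM (COL7A1) and the only called enzyme (P4HA1). The sequences are from RefSeq on GRCh38.p14, run 5′ to 3′ on the gene's own strand, and cover 250 bases before to 50 after the start. The windows are, in GRCh38.p14 coordinates, chr13:110307108-110307407 (minus strand) for COL4A1, chr2:227164374-227164673 (plus) for COL4A3, chrX:108439588-108439887 (plus) for COL4A5, chr3:48595280-48595579 (minus) for COL7A1 and chr10:73096817-73097116 (minus) for P4HA1. Capitals mark matches, on either strand, to the GC box GGGCGG, the CCAAT box CCAAT, the TATA box TATAAA and the hypoxia response core ACGTG.

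COL4A1: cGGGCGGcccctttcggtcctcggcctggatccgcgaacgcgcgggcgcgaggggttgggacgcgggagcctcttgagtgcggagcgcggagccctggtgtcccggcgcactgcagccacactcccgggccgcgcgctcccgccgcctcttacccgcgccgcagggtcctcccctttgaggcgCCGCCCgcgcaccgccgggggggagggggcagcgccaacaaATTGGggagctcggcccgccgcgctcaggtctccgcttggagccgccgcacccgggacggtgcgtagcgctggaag

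COL4A3: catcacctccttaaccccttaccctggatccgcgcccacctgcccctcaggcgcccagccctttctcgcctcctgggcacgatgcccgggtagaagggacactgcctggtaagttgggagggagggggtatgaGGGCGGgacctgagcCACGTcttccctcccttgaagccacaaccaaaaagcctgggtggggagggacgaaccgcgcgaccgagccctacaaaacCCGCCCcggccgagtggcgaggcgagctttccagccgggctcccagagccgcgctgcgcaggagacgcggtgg

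COL4A5: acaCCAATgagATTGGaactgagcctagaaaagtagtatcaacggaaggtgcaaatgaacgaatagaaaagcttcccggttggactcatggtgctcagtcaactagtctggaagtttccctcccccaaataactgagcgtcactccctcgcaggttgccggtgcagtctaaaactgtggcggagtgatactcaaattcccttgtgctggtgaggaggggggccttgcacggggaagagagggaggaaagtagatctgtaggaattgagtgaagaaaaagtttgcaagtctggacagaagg

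COL7A1: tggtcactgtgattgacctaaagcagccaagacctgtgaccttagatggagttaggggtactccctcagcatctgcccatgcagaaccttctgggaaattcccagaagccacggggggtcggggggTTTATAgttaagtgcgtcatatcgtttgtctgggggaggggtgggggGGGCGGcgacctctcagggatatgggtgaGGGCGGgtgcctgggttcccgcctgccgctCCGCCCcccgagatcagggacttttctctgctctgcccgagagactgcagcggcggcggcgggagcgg

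P4HA1: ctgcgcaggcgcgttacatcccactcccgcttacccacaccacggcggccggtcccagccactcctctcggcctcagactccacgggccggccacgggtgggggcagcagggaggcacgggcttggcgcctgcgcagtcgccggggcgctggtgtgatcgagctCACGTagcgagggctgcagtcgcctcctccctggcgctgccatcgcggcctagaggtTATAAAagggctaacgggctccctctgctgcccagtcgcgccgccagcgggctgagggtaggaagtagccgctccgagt

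A window of this kind was found for 39 of the 52 genes, 53 windows in all. GGGCGG occurred in 30 of the 53 (56.6%, against 45.0% of all 35116 RefSeq windows), CCAAT in 17 (32.1% against 34.6%), TATAAA in 9 (17.0% against 11.5%) and ACGTG in 11 (20.8% against 21.4%). In the windows printed, COL7A1 held 3 GC boxes and 1 TATAAA, P4HA1 held 1 TATAAA and 1 ACGTG, and COL4A5 held 2 CCAAT boxes and no other match. The 3 collagen IV pairs lie head to head, so a stretch printed for one gene also lies before its partner, read on the other strand. The COL4A1 window shared 226 bases with that of COL4A2, the COL4A3 window 82 with that of COL4A4, and the COL4A5 window 121 with 1 of the COL4A6 windows. Such matches describe letters and say nothing of which factor binds.

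After FSCN1 silencing several collagen chains rose, and the enzymes went in both directions. Of the 52 genes, 35 passed the filter on low counts and were tested, 24 chains and 11 enzymes, and 8 were called, 7 higher and 1 lower. The 7 were COL4A3, COL4A4 and COL4A5 of the basement membrane, the anchoring fibril chain COL7A1, and the fibrillar chains COL11A2, COL24A1 and COL27A1. The 1 called lower was P4HA1, a catalytic subunit of prolyl 4-hydroxylase. The 8 calls are 22.9% of the members tested, against 16.5% of all 17076 genes tested, and the higher calls 20% against 11.7%, the lower ones 2.86% against 4.85%. COL11A2 and COL24A1 were admitted by the filter only through the siFSCN1 libraries, so these shares are a description. Among genes with a mean of at least 1 FPKM in a group, 5 of 22 members were called, 22.7% against 10.7% of 11703 such genes, with 4 higher (18.2% against 5.86%) and 1 lower (4.55% against 4.85%).

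Without the fold criterion, 23 of the 35 passed the test, against 68.3% of all genes tested. Of these 16 rose, beside 35.1% of all genes, and 7 fell, beside 33.2%. The genes that rose include COL11A2 and COL24A1, admitted only through the siFSCN1 libraries, so these counts too are a description. Among chains 12 rose and 1 (COL6A2) fell, with a median log2 fold change of 0.64 over the 24 tested, while among enzymes 4 rose and 6 fell, with a median of -0.13 over the 11 tested. With scaling to library totals 17 chains rose and 1 fell, and 4 enzymes rose and 3 fell. With upper quartile scaling the counts were 16 and 1 for chains and 4 and 4 for enzymes. The median of all genes tested was 0.03 in the main fit, 0.22 with library totals and 0.15 with the upper quartile. Genes of every kind thus shifted upward under those scalings, and the 35.1% is not their background. CPM of the groups did not overlap for 24 of the 35, against 71.3% of all genes tested, a share no larger than that background. The median was -0.07 among the 11703 genes of at least 1 FPKM, and once the fitted trend of fold change with abundance was subtracted the median of the chains was 0.46 and that of the enzymes -0.08.

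**Figure D1:**
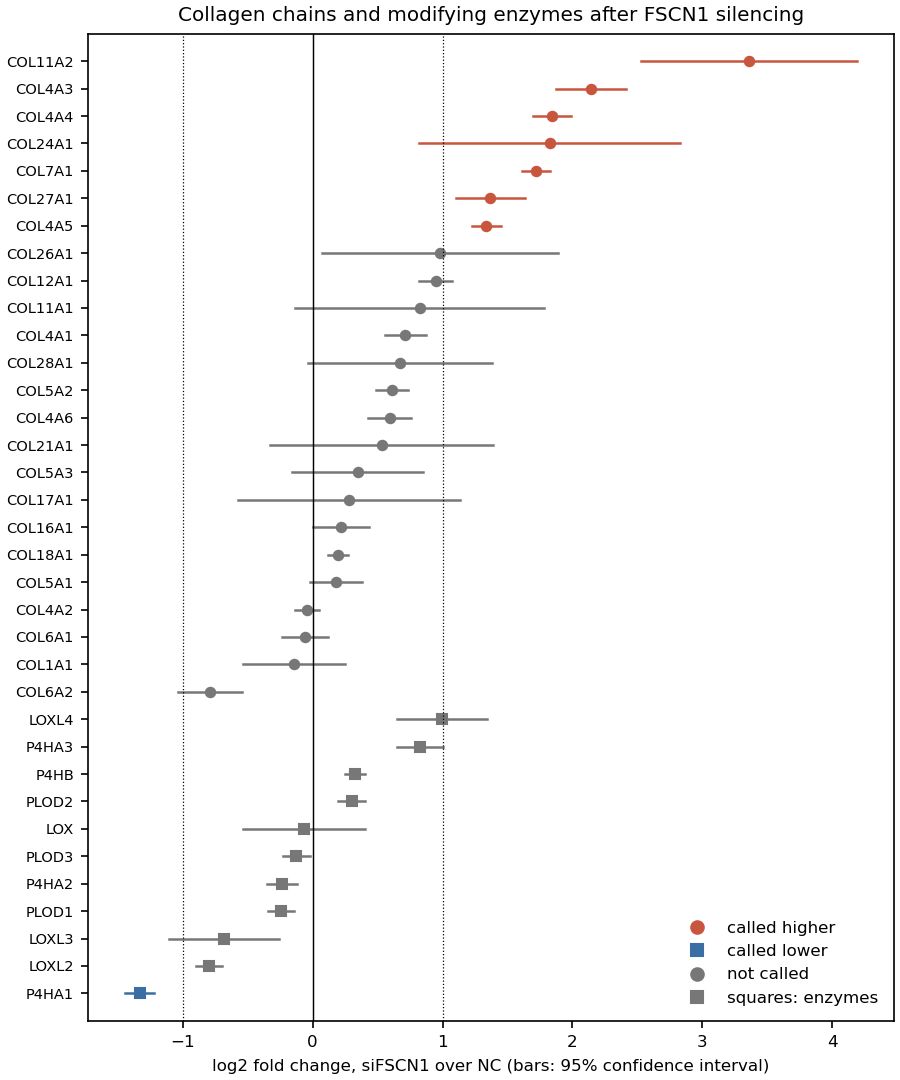
Log2 fold change of siFSCN1 over NC (horizontal axis) for the 35 members tested, collagen chains as circles above and enzymes as squares below, with 95% confidence intervals as bars and dotted lines at 2-fold. The points of the 7 chains called higher lie to the right of the right dotted line. The point of P4HA1, the enzyme called lower, lies to the left of the left one. Those of LOXL4 and COL12A1 lie just short of 2-fold, and their bars cross the line, as does the bar of COL24A1. Bars of other genes that were not called also cross a dotted line, among them COL11A1, COL26A1, COL6A2 and LOXL3.

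**Figure D2:**
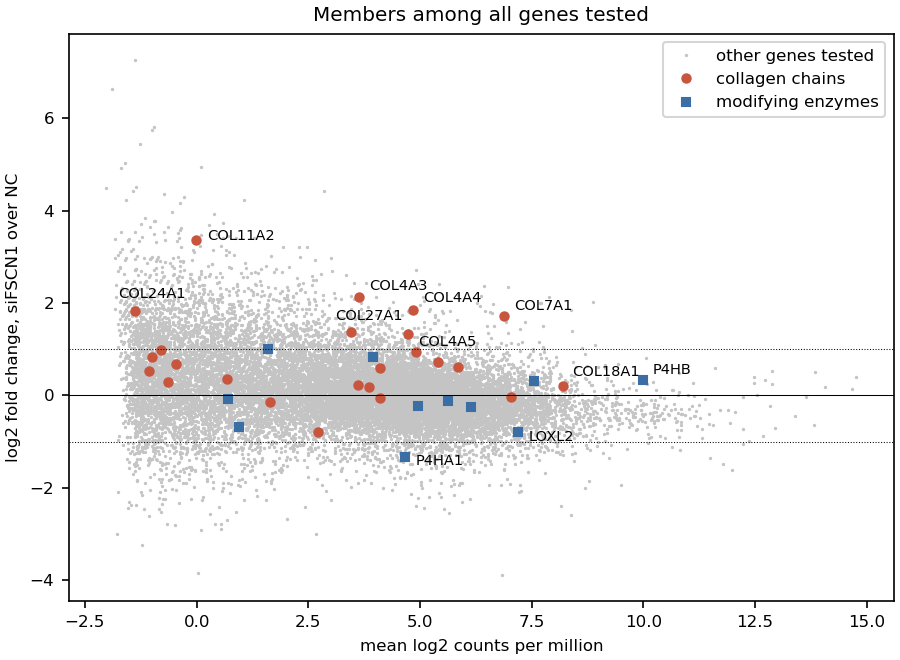
Log2 fold change of siFSCN1 over NC (vertical axis) against mean log2 CPM (horizontal axis), with each of the 17076 genes tested as a grey point, collagen chains as circles and enzymes as squares. COL7A1, at a log2 fold change of 1.72, lies at the upper edge of the cloud at its abundance, whereas COL24A1 at 1.83 lies among many grey points of low abundance.

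The 6 collagen IV chains form the network of basement membranes. COL4A1 and COL4A2 make the molecule found in nearly all basement membranes, COL4A3, COL4A4 and COL4A5 join in a molecule typical of the kidney glomerulus and the lung alveolus, and COL4A6 pairs with COL4A5 in the basement membrane of several epithelia. All 6 were tested. Of these 5 rose, beside 35.1% of all genes tested, whereas COL4A2 did not pass the test. The median log2 fold change of the 6 was 1.03.

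COL4A3 (ENSG00000169031.21, chromosome 2, 227164624 to 227314792, plus strand) stood at 4.29, 3.57 and 5.49 CPM in the NC libraries and 18.8, 19.1 and 21.5 in the siFSCN1 libraries. The lowest siFSCN1 library was more than 3 times the highest NC library, and the gene rose 4.41-fold (log2 fold change 2.14, SE 0.128, adjusted p = 5.61e-11). Its exons share 6.82% of their length with the antisense transcript MFF-DT, which held between 22 and 61 counts in a library, and the strand setting of the counting was not stated. COL4A4 (ENSG00000081052.14, chromosome 2, 227002714 to 227164453, minus strand) starts 171 bases away and runs the other way. It measured 14.2, 11.1 and 11.5 CPM in the NC libraries and 43.1, 45.5 and 43.8 in the siFSCN1 libraries, a 3.59-fold rise (log2 fold change 1.84, SE 0.0703, adjusted p = 1.23e-13). The groups were far apart for both genes of the pair.

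COL4A5 (ENSG00000188153.14, chromosome X, 108439838 to 108697545, plus strand), the X-linked partner of both, stood at 14.99, 14.4 and 15.2 CPM in the NC libraries and 36.4, 37.7 and 38.7 in the siFSCN1 libraries. It rose 2.52-fold (log2 fold change 1.34, SE 0.0534, adjusted p = 2.33e-13), and the libraries of a group lay close together. COL4A6, which starts 341 bases from COL4A5 on the other strand, measured 14.9, 13.6 and 12.2 CPM in the NC libraries and 21.05, 20.04 and 20.1 in the siFSCN1 libraries and rose 1.51-fold (log2 fold change 0.59, SE 0.0801, adjusted p = 3.16e-06). The genes of this pair, side by side on the chromosome, both rose.

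COL4A1 stood at 31.01, 33.7 and 30.8 CPM in the NC libraries and 44.8, 55.4 and 56.4 in the siFSCN1 libraries. It rose 1.64-fold (log2 fold change 0.71, SE 0.0733, adjusted p = 8.97e-08), with siFSCN1 replicate 1 below the other two. COL4A2, its partner in the same molecule and its head-to-head neighbour on chromosome 13, measured 135, 138 and 125 CPM in the NC libraries and 124, 133 and 129 in the siFSCN1 libraries. The groups overlapped, and the difference of -0.04 (95% interval -0.14 to 0.05, adjusted p = 0.413) did not pass the test. With scaling to library totals the sign of COL4A2 turned to 0.14, at an adjusted p of 0.00966, so its direction is not given.

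Within a library, shares and ratios need no scaling between libraries, since a library factor cancels out. Shares do depend on the gene lengths that FPKM uses. As a share of the summed FPKM of the 6 chains, COL4A1 and COL4A2 together took 67.4%, 70.8% and 68.1% in NC and 47.5%, 49.8% and 49.2% in siFSCN1. COL4A3, COL4A4 and COL4A5 together took 20.8%, 18.3% and 21.5% in NC and 41.2%, 40.1% and 40.7% in siFSCN1. The share of COL4A1 alone was 16.5% ± 0.763 in NC and 17.0% ± 1.46 in siFSCN1 (SD, n = 3), so the smaller share of the pair was that of COL4A2, which went from 52.3% ± 1.21 to 31.9% ± 0.556. COL4A6 held 11.1% ± 0.735 and 10.5% ± 0.728. COL4A2 thus held a smaller share in siFSCN1 and COL4A3, COL4A4 and COL4A5 larger ones, with no overlap between the groups for any of these 4. CPM of single genes did not overlap for 71.3% of all genes tested. The level of COL4A2 itself stayed near 132.5 CPM in NC and 128.6 in siFSCN1. The summed FPKM of the 6 chains went from 10.5 ± 0.315 to 18.7 ± 0.512, or from 209.5 ± 8.35 to 303 ± 12.5 CPM.

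**Figure D3:**
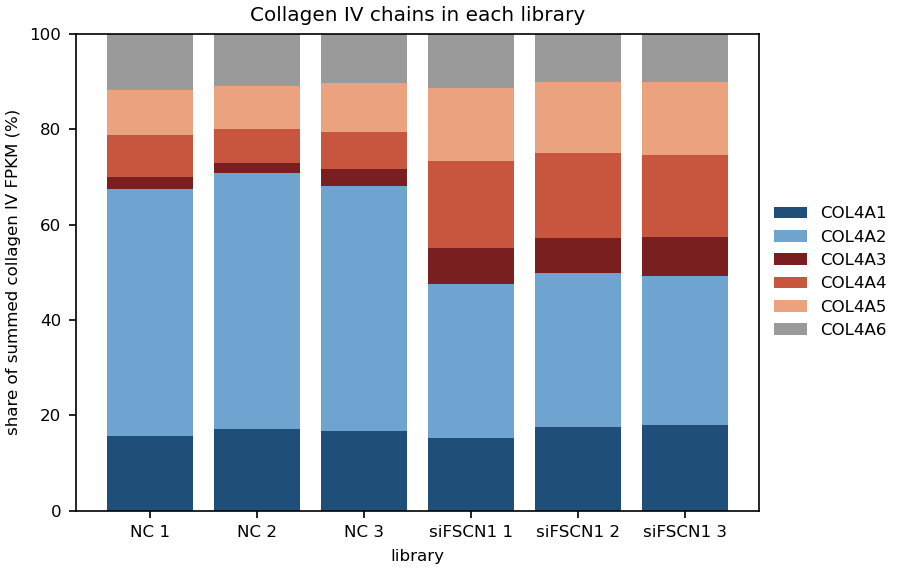
Stacked bars give the share of each collagen IV chain in the summed collagen IV FPKM (vertical axis, percent) of each of the 6 libraries (horizontal axis). COL4A1 and COL4A2 (blue, bottom) fill between 67.4% and 70.8% of the NC bars and between 47.5% and 49.8% of the siFSCN1 bars, and COL4A3, COL4A4 and COL4A5 (red to orange) fill between 18.3% and 21.5% and between 40.1% and 41.2%.

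COL7A1 (ENSG00000114270.18, chromosome 3, 48564073 to 48595329, minus strand) encodes the chain of anchoring fibrils. It stood at 51.6, 58.8 and 53.3 CPM in the NC libraries and 173, 187 and 179 in the siFSCN1 libraries, or 54.5 ± 3.74 CPM in NC and 179.7 ± 7.21 CPM in siFSCN1 (SD, n = 3). It rose 3.30-fold (log2 fold change 1.72, SE 0.0509, adjusted p = 5.99e-15), and the lowest siFSCN1 library lay far above the highest NC library. Mean level went from 3.90 to 14.4 FPKM, which moved it from 7.36% ± 0.472 to 16.9% ± 0.478 of the summed FPKM of chains. COL6A3, with no FPKM value, is not in that sum. No other chain gained as large a share, and COL7A1 passed COL4A2 and COL5A2 to become the second most abundant chain by FPKM after COL18A1. This rank depends on the gene lengths used. By CPM, COL7A1 already stood above COL5A2 in NC (54.5 against 45.6).

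Fibrillar chains build the banded fibrils of connective tissue. Of 11 such genes 8 were tested and 4 rose, beside 35.1% of all genes tested. These 4 include COL11A2 and COL24A1, which the filter admitted only through the siFSCN1 libraries, so the count is a description. COL1A2, COL3A1 and COL2A1, the main fibrillar chains of fibroblasts and of cartilage, were not tested, with at most 4 counts in any library. COL1A1 measured 3.50, 2.85 and 3.21 CPM in the NC libraries and 3.87, 2.64 and 2.15 in the siFSCN1 libraries, with overlapping groups (log2 fold change -0.14, 95% interval -0.54 to 0.25, adjusted p = 0.510).

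COL5A2, a chain of the collagen V that starts fibrils, was the fibrillar chain of highest FPKM, and it stood at 46.8, 44.02 and 45.9 CPM in the NC libraries and 63.3, 71.3 and 74.5 in the siFSCN1 libraries. It rose 1.53-fold (log2 fold change 0.61, SE 0.0589, adjusted p = 3.74e-08). COL5A1, which joins it in the same molecule, measured 15.3, 12.04 and 13.1 CPM in the NC libraries and 15.8, 15.3 and 14.7 in the siFSCN1 libraries (log2 fold change 0.18, 95% interval -0.02 to 0.38, adjusted p = 0.105) and did not pass the test, and COL5A3 gave 0.35 (adjusted p = 0.213). COL5A1 passed with scaling to library totals (0.36, adjusted p = 0.00214) and to the upper quartile (0.30, adjusted p = 0.0105), in both limma fits and without NC replicate 1 (0.26, adjusted p = 0.0156).

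COL27A1, a fibrillar chain of cartilage and some epithelia, stood at 5.12, 5.62 and 7.30 CPM in the NC libraries and 14.2, 16.6 and 16.04 in the siFSCN1 libraries and rose 2.58-fold (log2 fold change 1.37, SE 0.125, adjusted p = 1.94e-08). COL11A2, a chain of the collagen XI of cartilage, had 4, 1 and 9 counts in NC and 45, 61 and 59 in siFSCN1, a fitted rise of 10.3-fold (log2 fold change 3.36, SE 0.396, adjusted p = 5.53e-07) whose log2 value was 4.11 without NC replicate 3 and 2.96 without NC replicate 2. COL24A1 had 2, 3 and 7 counts in NC and 16, 14 and 19 in siFSCN1 (log2 fold change 1.83, SE 0.478, adjusted p = 0.00252), and was not called when tested against a 2-fold difference (glmTreat, adjusted p = 0.17) or with limma on FPKM. The group means of all 3 were under 1 FPKM, although 2 siFSCN1 libraries of COL27A1 were above it, and the folds of the last 2 rest on NC counts of at most 9. COL11A1, the partner of COL11A2, gave 0.82 (adjusted p = 0.117) and did not pass.

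Collagen VI forms beaded filaments near the cell surface. COL6A2 measured 7.89, 9.42 and 7.89 CPM in the NC libraries and 4.65, 4.77 and 5.09 in the siFSCN1 libraries and was the only chain that fell (log2 fold change -0.79, SE 0.117, adjusted p = 9.1e-06), 1.73-fold lower. COL6A1, a neighbour on chromosome 21 and a partner in the molecule, measured 16.8, 19.8 and 16.2 CPM in the NC libraries and 16.2, 18.3 and 16.1 in the siFSCN1 libraries (log2 fold change -0.06, 95% interval -0.24 to 0.12, adjusted p = 0.560), with overlapping groups and a sign that turned under 4 other scalings or models and without NC replicate 2. COL6A3, the chain that completes the classical molecule, had at most 2 counts in any library and was not tested.

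COL18A1, whose C-terminal fragment is endostatin, was by far the most abundant chain, with 48.9% ± 0.366 of the summed chain FPKM in NC and 39.1% ± 1.18 in siFSCN1. It stood at 282, 278 and 268 CPM in the NC libraries and 316, 308 and 321 in the siFSCN1 libraries and rose by little (log2 fold change 0.19, SE 0.0366, adjusted p = 0.000148), with groups that did not overlap. Its exons share 18.5% of their length with SLC19A1 on the opposite strand, a gene of 1533 to 1760 counts against 8137, 7320 and 9175 counts of COL18A1 in NC. Its share was smaller in siFSCN1 while the summed FPKM of all chains was larger, at 53.1, 53.8 and 51.9 in NC and 83.9, 84.6 and 86.4 in siFSCN1, a ratio of 1.60, or 1.47 on the CPM scale.

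Of the fibril-associated collagens (FACIT), which sit on the surface of fibrils, 3 of 8 were tested. COL12A1 measured 21.9, 19.6 and 19.9 CPM in the NC libraries and 37.3, 38.7 and 42.4 in the siFSCN1 libraries and rose 1.93-fold (log2 fold change 0.95, SE 0.0607, adjusted p = 1.43e-10), just under the 2-fold line. COL16A1 measured 9.90, 11.4 and 12.2 CPM in the NC libraries and 13.1, 12.1 and 13.8 in the siFSCN1 libraries and did not pass (log2 fold change 0.22, 95% interval 0.0026 to 0.44, adjusted p = 0.0677), nor did COL21A1 (0.53, adjusted p = 0.257). COL16A1 passed with scaling to library totals (0.41, adjusted p = 0.00214) and to the upper quartile (0.34, adjusted p = 0.00699), with the stricter filter, in both limma fits and without NC replicate 3 (0.28, adjusted p = 0.0396). COL17A1, the transmembrane collagen of hemidesmosomes that an epithelium uses to hold its basement membrane, was near its detection limit with 24, 13 and 9 counts in NC and 26, 25 and 13 in siFSCN1 (adjusted p = 0.553). COL26A1 (0.98, adjusted p = 0.0533) and COL28A1 (0.67, adjusted p = 0.0857) also missed the threshold at low counts, and both passed it with scaling to library totals (1.16, adjusted p = 0.0217, and 0.86, adjusted p = 0.0303).

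The 17 genes not tested were 16 chains and LOXL1. None had more than 12 counts in a library, and 5 had at most 3 in every library. A count of 3 is worth between 0.0872 and 0.114 CPM at these depths. Differences in these 17 genes, at up to 12 counts in a library, were not assessed, which is not to say that the transcripts are absent.

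**Figure D4:**
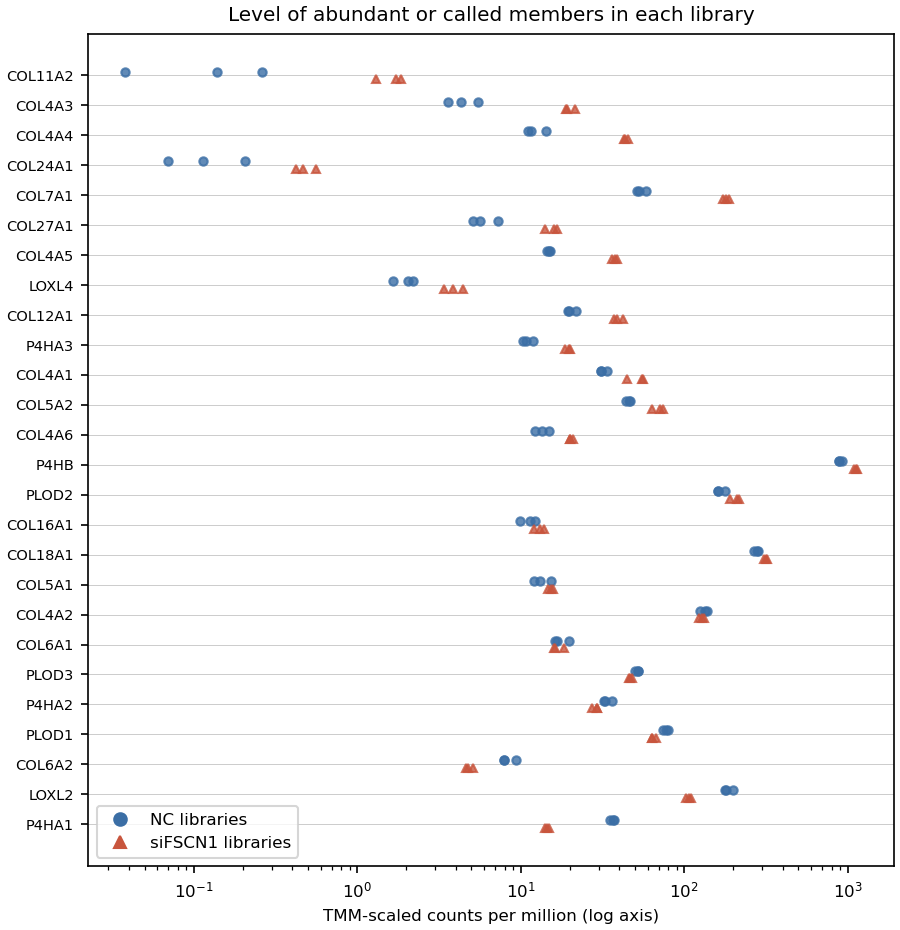
TMM-scaled CPM (horizontal log axis) in each library, NC as circles and siFSCN1 as triangles, for the members that were called, lay near 2-fold or had a mean of at least 1 FPKM in a group, ordered by log2 fold change from COL11A2 (3.36) at the top to P4HA1 (-1.33) at the bottom. Triangles lie to the right of circles for COL7A1, COL4A3, COL4A4 and COL4A5 and to the left for P4HA1 and LOXL2.

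Among enzymes, prolyl 4-hydroxylase hydroxylates proline, which lets the collagen helix hold at body temperature. It is a tetramer of catalytic alpha subunits (P4HA1, P4HA2 or P4HA3) with the beta subunit P4HB, which is protein disulfide isomerase and has other tasks in the endoplasmic reticulum. All 4 genes passed the test, as did 68.3% of all genes tested, and they went in opposite directions. P4HA1 (ENSG00000122884.13, chromosome 10, 73007217 to 73096974, minus strand) stood at 35.4, 36.9 and 37.01 CPM in the NC libraries and 14.1, 14.5 and 14.8 in the siFSCN1 libraries, or 36.4 ± 0.892 CPM in NC and 14.5 ± 0.337 CPM in siFSCN1 (SD, n = 3). It fell to 39.7% of the NC level (log2 fold change -1.33, SE 0.0535, adjusted p = 2.44e-13), with no siFSCN1 library near the NC range.

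P4HA2 measured 32.3, 36.3 and 32.7 CPM in the NC libraries and 29.1, 29.3 and 27.5 in the siFSCN1 libraries and fell by little (log2 fold change -0.24, SE 0.0559, adjusted p = 0.00114). With scaling to library totals its adjusted p was 0.457 at a log2 fold change of -0.05, so this fall depends on the scaling. P4HA3, the subunit of lowest NC level by FPKM, measured 11.9, 10.7 and 10.3 CPM in the NC libraries and 20.1, 19.7 and 18.6 in the siFSCN1 libraries and rose 1.77-fold (log2 fold change 0.83, SE 0.0840, adjusted p = 8.14e-08). Its exons share 4.16% of their length with the opposite-strand gene PPME1, which held 3207 to 4485 counts. P4HB, the most abundant gene of the 52 by FPKM, measured 919.8, 891 and 887 CPM in the NC libraries and 1144, 1131 and 1098 in the siFSCN1 libraries and rose 1.25-fold (log2 fold change 0.32, SE 0.0363, adjusted p = 3.07e-07). Mean level of P4HA1 went from 9.36 to 4.17 FPKM and that of P4HB from 64.2 to 90.1 FPKM.

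Lysyl hydroxylases prepare lysines for sugar addition and for crosslinking, PLOD2 those of the telopeptides that give stable crosslinks. PLOD2 measured 162, 177 and 162 CPM in the NC libraries and 190.3, 209 and 216 in the siFSCN1 libraries and rose 1.23-fold (log2 fold change 0.30, SE 0.0487, adjusted p = 2.62e-05). PLOD1 measured 77.4, 79.5 and 74.2 CPM in the NC libraries and 67.6, 63.4 and 63.7 in the siFSCN1 libraries and fell (log2 fold change -0.25, SE 0.0481, adjusted p = 0.00019), and PLOD3, which also adds glucose to collagen, measured 51.9, 52.1 and 49.7 CPM in the NC libraries and 48.1, 46.8 and 45.9 in the siFSCN1 libraries and fell (log2 fold change -0.13, SE 0.0492, adjusted p = 0.0301). Both falls were small, to 84.3% and 91.6% of the NC level, and PLOD3 did not pass in 4 of the 6 fits that left out a library, with adjusted p of 0.0564 to 0.0653. Both were lost with scaling to library totals, where PLOD1 gave -0.06 (adjusted p = 0.28) and the sign of PLOD3 turned to 0.06 (adjusted p = 0.289).

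Of the lysyl oxidases 4 were tested. LOXL2, the most abundant of them and known for crosslinking collagen IV, measured 178, 199 and 182 CPM in the NC libraries and 102, 111 and 108 in the siFSCN1 libraries, or 186 ± 11.2 CPM in NC and 107 ± 4.37 CPM in siFSCN1 (SD, n = 3). It fell 1.74-fold (log2 fold change -0.80, SE 0.0471, adjusted p = 4.36e-11), with the highest siFSCN1 library well under the lowest NC library, and its exons share 2.01% of their length with ENTPD4 on the same strand. LOXL3 measured 2.49, 2.54 and 2.02 CPM in the NC libraries and 1.40, 1.76 and 1.21 in the siFSCN1 libraries and fell (log2 fold change -0.69, SE 0.202, adjusted p = 0.00584), and its exons share 20.7% of their length with the opposite-strand gene HTRA2 of 647 to 994 counts. LOXL4 measured 2.18, 2.05 and 1.67 CPM in the NC libraries and 3.40, 4.43 and 3.86 in the siFSCN1 libraries and rose 1.99-fold (log2 fold change 0.99, SE 0.164, adjusted p = 3.27e-05), just short of the 2-fold line. LOX, at 1.14, 1.75 and 1.90 CPM in the NC libraries and 1.66, 1.34 and 1.59 in the siFSCN1 libraries, did not pass the test (-0.07, 95% interval -0.54 to 0.40, adjusted p = 0.800). The summed FPKM of the lysyl oxidases was 25.8 ± 1.57 in NC and 17.4 ± 0.532 in siFSCN1, nearly all of it LOXL2.

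Ratios of 10 pairs of chains or enzymes that work together or share a role were compared within each library. The level of a ratio depends on the gene lengths used, while its fold between groups does not. For 9 of the 10 the 3 siFSCN1 ratios did not overlap the 3 NC ratios. CPM of single genes did not overlap for 71.3% of all genes tested, and ratios of other gene pairs were not computed. The exact two-sided permutation p of these 9 is the smallest that 3 against 3 libraries allow (p = 0.1). Adjusted over the 10 pairs it is 0.111, so none can pass 0.05. P4HA1 to P4HB went from 0.146 to 0.046 and P4HA1 to P4HA2 from 3.54 to 1.66. COL4A1 to COL4A2 went from 0.315 ± 0.0115 to 0.532 ± 0.0519 (SD, n = 3), and COL4A5 to COL4A6 from 0.868 to 1.44. COL4A3 to COL4A4, whose partners rose together, overlapped between the groups at 0.351 ± 0.0966 and 0.433 ± 0.0368 (exact permutation p = 0.3). COL6A1 to COL6A2 went from 2.02 to 3.36, COL5A1 to COL5A2 from 0.194 to 0.145, PLOD1 to PLOD2 from 0.666 to 0.457, PLOD3 to PLOD2 from 0.416 to 0.310 and LOXL2 to LOX from 114 to 66.3. COL4A3 to COL4A4 was the one ratio of the 10 whose groups overlapped.

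**Figure D5:**
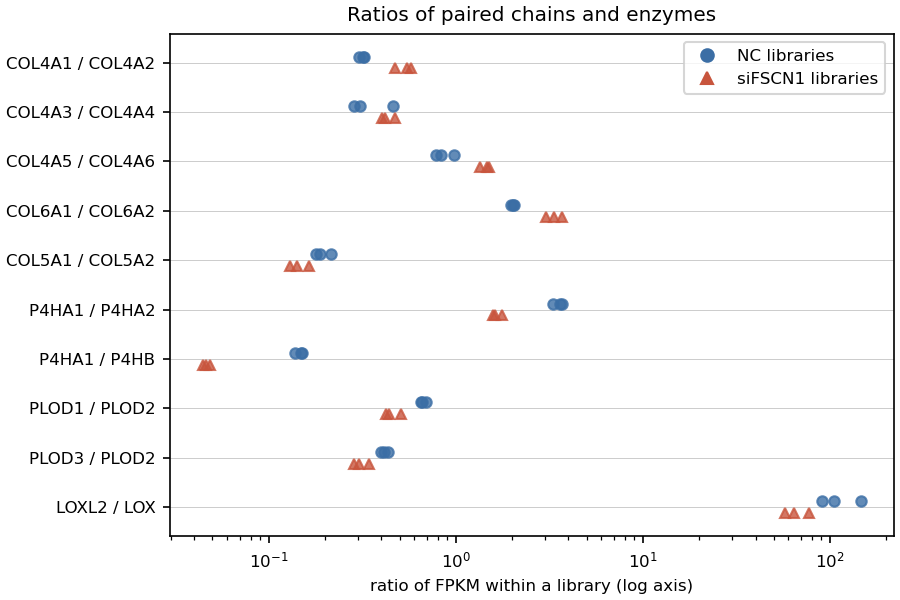
Ratio of FPKM of paired genes within each library (horizontal log axis), 3 NC libraries as circles and 3 siFSCN1 libraries as triangles for each of 10 pairs. Circles and triangles are apart for every pair except COL4A3 to COL4A4, and the widest gap is that of P4HA1 to P4HB, from 0.146 to 0.046.

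Other genes of the collagen pathway were taken from 3 lists. Folding and modification partners had 11 of 12 genes tested, 3 higher and 4 lower, with 1 called and a median log2 fold change of -0.03. Of all genes tested 35.1% rose, 33.2% fell and 16.5% were called. The called gene was P3H2, a prolyl 3-hydroxylase that acts on collagen IV, at 13.98, 12.6 and 14.5 CPM in the NC libraries and 27.6, 29.4 and 29.6 in the siFSCN1 libraries (log2 fold change 1.07, SE 0.0649, adjusted p = 6.33e-11). FKBP10, a proline isomerase needed for lysyl hydroxylation of telopeptides, rose (log2 fold change 0.91, adjusted p = 1.45e-12) without reaching 2-fold, and P3H1 rose (0.35, adjusted p = 1.6e-05). The collagen chaperone SERPINH1, also called HSP47, fell (-0.27, adjusted p = 1.52e-05), as did the galactosyltransferase COLGALT1 (-0.49, adjusted p = 5.86e-09), CRTAP (-0.23, adjusted p = 1.39e-05) and P3H4 (-0.24, adjusted p = 0.000192). With scaling to library totals SERPINH1 (-0.08, adjusted p = 0.0763), CRTAP (-0.04, adjusted p = 0.253) and P3H4 (-0.06, adjusted p = 0.307) no longer passed, and the sign of CRTAP turned to 0.06 once the trend with abundance was removed.

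Genes of procollagen export and processing had 9 of 13 tested and 0 called, beside 16.5% of all genes tested, and DESeq2 also called 0. In the edgeR test 6 rose and 1 fell, beside 35.1% and 33.2% of all genes tested. The median log2 fold change was 0.19. MIA3 and MIA2, whose products TANGO1 and cTAGE5 help load procollagen at exit sites of the endoplasmic reticulum, rose (log2 fold changes 0.83 and 0.48, adjusted p = 5.02e-10 and 4.13e-07). The vesicle coat genes SEC24D (0.35, adjusted p = 9.83e-05) and SEC23A (0.11, adjusted p = 0.0399), the procollagen C-proteinase BMP1 (0.19, adjusted p = 0.000824) and its enhancer PCOLCE2 (0.54, adjusted p = 2.04e-08) rose too, and KDELR2, a retrieval receptor that carries chaperones back, fell (-0.39, adjusted p = 3.49e-08). Of 7 collagen receptors 6 were tested and all passed, in a comparison where 68.3% of all genes tested did, and 2 were called, against 16.5% of all genes tested. ITGA1 rose (0.94, adjusted p = 3.72e-07), as did its partner subunit ITGB1 (0.33, adjusted p = 8.5e-06), while ITGA2 (-0.29, adjusted p = 0.00877) and the kinase DDR1 (-0.31, adjusted p = 5.49e-06) fell, the fall of ITGA2 not passing with scaling to library totals (-0.11, adjusted p = 0.338). ITGA10 (1.08, adjusted p = 0.00546) and ITGA11 (1.68, adjusted p = 0.000215) were called higher at 7 to 69 counts in a library. ITGA11 was admitted by the filter only through the siFSCN1 libraries, so its call is a description. ITGA10 was not called in 6 of 17 alternative fits. Among them were the fits without NC replicate 2 (0.75) or siFSCN1 replicate 3 (0.88) and the removal of the abundance trend (0.70).

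The cells carried epithelial markers and almost none of fibroblasts. Summed CPM of 11 fibroblast markers was 5.95, 5.32 and 5.43 in NC and 6.31, 4.28 and 3.91 in siFSCN1, and only 4 of the 11 were tested. FAP and POSTN were at 0 in every NC library and at most 2 counts in a siFSCN1 library, and DCN, PDGFRA and PDGFRB had at most 6. Of the 4 tested, THY1 fell (-0.94, adjusted p = 0.00487), TCF21 was called higher (1.40, adjusted p = 0.0312) at 1 to 22 counts in a library, admitted by the filter only through the siFSCN1 libraries, and the others did not pass. The 7 epithelial markers all passed the test, as did 68.3% of all genes tested. Keratins KRT8 (-0.88), KRT18 (-0.99) and KRT19 (-1.10) fell, and CDH1 (1.35), MUC1 (1.42), CLDN1 (0.63) and EPCAM (0.29) rose, all as log2 fold changes. Their part in the collagen results was not tested.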

How the data were processed

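RNA of 6 libraries, 3 NC and 3 siFSCN1, was grouped by sample titles. The authors deposited raw gene counts (30230 genes) and FPKM (29899 genes). Per the study's methods, trimmed reads were aligned to GRCh38 with HISAT2 and uniquely mapped reads counted, whereas the submitters' processing notes name TopHat2 and bcl2fastq. The counter, the annotation used and whether strand was read are not given in the sources used here. The labels describe a directional library kit. FPKM were scaled by mapped fragments without a composition factor, so their ratios between groups run higher than those of TMM-scaled CPM (COL4A2 went from 5.47 to 5.95 FPKM and from 132.5 to 128.6 CPM).

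Counts were filtered with filterByExpr and scaled by TMM (factors 0.933 to 0.942 in NC, 1.05 to 1.08 in siFSCN1), and groups were compared over 17076 genes with edgeR 4.0.16 (quasi-likelihood test, R 4.3.3) and Benjamini-Hochberg adjustment. Calls needed an adjusted p under 0.05 and a 2-fold difference. Paired ratios used exact two-sided permutation tests over libraries, for which 0.1 is the smallest p. Positions and exon overlaps are from GENCODE v44, promoters from RefSeq (GRCh38.p14). The tests were tried on simulated counts first. The 17 alternatives included DESeq2 1.42.0 and limma 3.58.1 on log2(FPKM + 0.1) and log2(FPKM + 1). By rule, the text names FSCN1, members with a mean of at least 1 FPKM in a group, called members, members near 2-fold (absolute log2 fold change of 0.9 to 1.1, adjusted p under 0.05), called partner genes and SERPINH1. Other genes were named after their values were seen. Members, roles, partner and marker lists were chosen with earlier results of these data known. The edgeR p-values set the group difference against the spread between these libraries. They do not cover other siRNAs against FSCN1 or other cell lines.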

Additional observations from a re-analysis of the deposited data

How the results depend on the processing

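All 8 calls were kept with RLE, upper quartile or library total scaling, DESeq2, no filter and the replicate block. Each of the 6 fits that left out a library kept them too. With the abundance trend removed all 8 stayed at least 2-fold. That setting recomputed fold changes only and kept the adjusted p of the main fit. The stricter filter, glmTreat and limma on log2(FPKM + 0.1) kept 7 (COL24A1 was not tested or not called), and limma on log2(FPKM + 1), which shrinks low genes, kept 3 (COL4A4, COL7A1 and P4HA1). Between 21 and 25 members passed the test in 16 alternatives, among them the trend removal, where that number was fixed by the main fit. Same-numbered libraries were not paired (correlations of same-numbered deviations -0.035, 0.040 and -0.084), and the replicate block gave 8 member calls and changed none of them. The median of all genes moved from 0.03 to 0.22 with library totals, 0.15 with the upper quartile and 0.17 with limma on log2(FPKM + 0.1).

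Member calls were 3 (2 higher) on log2(FPKM + 1). Higher calls were 11 with library totals, and lower calls were 3 with the trend removed and 2 with no filter. Calls over all genes varied too, with 471 of 17075 on log2(FPKM + 1) and 3147 of 17076 with library totals. They were 2347 with the trend removed, 2983 with the upper quartile and 1155 with glmTreat, each of 17076. With no filter 3435 of 27385 genes were called, and on log2(FPKM + 0.1) 1982 of 17075. The median of the members was 0.53 with library totals, 0.13 on log2(FPKM + 1) and 0.46 with the upper quartile, and 0.31 to 0.62 with a library left out, with 0.62 without NC replicate 1. COL11A2 gave 2.96 to 4.11 with a library left out. Calls ranged from 8 to 10, and higher calls from 7 to 9, with a library left out, where 2854 to 3028 of all genes were called. Folding partners had 2 calls with the trend removed, library totals, limma on log2(FPKM + 0.1) or the upper quartile and 0 with glmTreat. Receptors had 3 with library totals or the upper quartile, 1 with the trend removed, 0 with glmTreat and both limma fits, and 1 to 2 with a library left out (1 without NC replicate 2 and without siFSCN1 replicate 3). Export genes had 1 with library totals. On the CPM scale the summed ratios were 1.47 for chains and 1.103 for enzymes, against 1.60 and 1.15 in FPKM.

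Signs turned for COL4A2, COL6A1 and PLOD3 among the members of at least 1 FPKM. COL4A2 gave 0.17 (trend removed), 0.14 (library totals), 0.12 (log2(FPKM + 0.1)), 0.10 (log2(FPKM + 1)) and 0.075 (upper quartile). COL6A1 gave 0.129, 0.10, 0.0776 and 0.0605 with library totals, the 2 limma fits and the upper quartile, and -0.128 to 0.0214 with a library left out, the last without NC replicate 2. PLOD3 gave 0.0087 with the trend removed, 0.0605 with library totals, and 0.0387 and 0.0346 in the limma fits. Among genes of lower level or outside the members, removing the trend turned COL17A1 (-0.21), COL21A1 (-0.03), COL5A3 (-0.0097) and CRTAP (0.06), and library totals turned LOX (0.12) and COL1A1 (0.04). Beyond 2-fold, COL12A1 was called with library totals (1.13), the upper quartile (1.06), log2(FPKM + 0.1) (1.02) and the trend removed (1.01), LOXL4 in 7 alternatives, P4HA3 with library totals (1.01) and LOXL3 (-1.02) and COL6A2, just past it, with the trend removed. The causes were not tested.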
